A study of Mus musculus with 4 samples.

Results

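The genes described here are 8 enzymes of cholesterol synthesis, Hmgcs1, Idi1, Fdps, Fdft1, Sqle, Cyp51, Msmo1 and Dhcr7. They were taken as a set by name, and all 8 were found among the 20136 genes of 4 Drop-seq libraries (Msmo1 under its older symbol Sc4mol). Drop-seq captures single cells with barcoded beads in droplets, and each captured transcript is counted once through its unique molecular identifier (UMI). All 4 libraries were made from tissue punched from the BNST (bed nucleus of stria terminalis, part of the extended amygdala) of male wildtype C57BL/6J mice. Every library was a batch of its own and pooled 6 mice, 24 in all. Ages are not given in the labels, and no treatment or second genotype was compared. Levels were read in OPC (oligodendrocyte precursor cells), committed precursors, mature oligodendrocytes, astrocytes and neurons.

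Cholesterol does not cross the blood-brain barrier in useful amounts, so the brain makes its own. Synthesis runs from acetyl-CoA through mevalonate and isoprenoids to squalene, and from squalene through lanosterol and a series of demethylations and reductions to cholesterol. The genes of the pathway are known to be switched on by the transcription factor SREBP2 when sterols are low. Oligodendrocytes need large amounts of cholesterol for myelin, and astrocytes are known as a source of sterol-carrying lipoprotein particles for neurons.

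In order along the pathway, Hmgcs1 (HMG-CoA synthase, an early enzyme) lies on chromosome 13 from 119690379 to 119708260 on the plus strand, in GENCODE vM21 on GRCm38, as for the other genes. Idi1, the isopentenyl diphosphate isomerase, lies on chromosome 13 from 8885501 to 8892451, plus strand. Fdps, which builds farnesyl diphosphate, lies on chromosome 3 from 89093588 to 89101959, minus strand. Fdft1, squalene synthase, lies on chromosome 14 from 63145150 to 63179578, minus strand, and Sqle, squalene epoxidase, on chromosome 15 from 59315077 to 59331192, plus strand. Cyp51, the lanosterol demethylase, lies on chromosome 5 from 4081145 to 4104746, minus strand. Msmo1, the methylsterol monooxygenase that follows it, lies on chromosome 8 from 64718139 to 64733792, minus strand. Dhcr7, a reductase of the last step, lies on chromosome 7 from 143823145 to 143848410, plus strand. Sqle, Msmo1 and Dhcr7 overlap no other annotated gene. Fdft1 overlaps Ctsb and Cyp51 overlaps Akap9, both on the opposite strand and both listed in the tables, and Fdps overlaps the listed gene Gm22935 on its own strand. Whether counting used strand is not given in the sources used here, so the levels of Fdft1 and Cyp51 are uncertain to that extent. The level of Fdps is uncertain with or without strand, since the overlapping gene lies on the same strand. Hmgcs1, Idi1 and Fdps also overlap Gm48342, Gm48574 and Gm43738, in that order, which are not in the tables.

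SREBP2 is known to bind sterol regulatory elements, often beside CCAAT boxes, so the starts of the genes were searched for both. RefSeq promoters (250 bases before to 50 after the start, GRCm38.p6) were found for 5 of the 8 enzymes, Hmgcs1, Idi1, Cyp51, Msmo1 and Dhcr7. The motif TCACNCCAC, read on both strands, was present in Hmgcs1 only among these 5, and in 408 of 32851 promoters in all (1.24%). CCAAT was found 4 times in Hmgcs1, 3 times in Msmo1, 2 times in Idi1 and 1 time in Cyp51. Of the 3 starts of Dhcr7, the third held 2 and the others 0. CCAAT was in 37.4% of all promoters. The Hmgcs1 promoter is shown because it alone of the 5 held an exact match to TCACNCCAC. Other forms of the sterol element were not searched. The stretch shown covers the 250 bases before the start, chr13:119690101-119690350, plus strand. In capitals are the match, 137 bases before the start, and the 3 CCAAT boxes of this stretch, none of which overlap. The boxes read ATTGG, as they lie on the minus strand.
Hmgcs1 promoter: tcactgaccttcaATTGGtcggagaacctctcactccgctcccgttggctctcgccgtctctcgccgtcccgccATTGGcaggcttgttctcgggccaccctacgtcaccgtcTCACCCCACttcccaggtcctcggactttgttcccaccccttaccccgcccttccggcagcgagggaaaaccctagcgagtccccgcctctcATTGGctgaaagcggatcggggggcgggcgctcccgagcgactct
A match of letters is a description and does not show that a factor bound there.

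The 4 tables held 10200 barcodes and 14018026 UMIs, 2640399 to 5652342 a library. After filters on detected genes, mitochondrial UMIs and doublets, 4181 cells were kept, 837 to 1281 a library, and 0 of the kept barcodes were found in more than 1 library. Cells were assigned by the UMIs of marker genes that include none of the 8 enzymes. This gave 106 OPC, 67 committed precursors, 909 mature oligodendrocytes, 384 astrocytes and 2493 neurons, with a median of 907, 1672, 1380, 816.5 and 3246 UMIs per cell. Markers kept out of the gate followed the labels. The myelin gene Mobp stood at 5120 ± 944 CPM (counts scaled to a total of 1e6 UMIs, ± SD, n = 4 libraries) in mature oligodendrocytes and at 75.07 ± 78.9 in OPC. The glutamate transporter Slc1a2 stood at 7220 ± 1446 CPM in astrocytes and 85.97 ± 27.3 in neurons. Snap25, a synaptic gene, stood at 1712 ± 42.1 CPM in neurons and 57.33 ± 25.5 in astrocytes. The class boundaries were not sharp among precursors, since Gpr17, which marks committed cells, stood at 617.3 ± 155 CPM in OPC. Pdgfra, which marks OPC, stood at 1009 ± 441 CPM in committed precursors. The replicate throughout is the library, a pool of mice, and levels are relative to the UMIs of a class, so less RNA of a gene and more RNA of all others cannot be told apart. The classes also differed in how much of their UMIs a few abundant genes took. Classes can be compared on the CPM scale or, as in the edgeR fits, after trimmed-mean (TMM) scaling, which sets the bulk of the genes level, and the text says where the choice matters.

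Summed over the 8 enzymes and over cells of all depths, astrocytes had the highest mean level and OPC the lowest of the glial classes. The sum was 799.3, 1079, 1185 and 844.3 CPM in the astrocytes of libraries 1 to 4 (976.7 ± 185 CPM, SD, n = 4, from 345 UMIs). It was 914.4, 678.8, 660.3 and 566 CPM in committed precursors (704.9 ± 148, 100 UMIs) and 595.3, 686.3, 685.3 and 610.1 CPM in mature oligodendrocytes (644.2 ± 48.4, 977 UMIs). Committed and mature cells overlapped, whereas astrocytes stood above mature oligodendrocytes in every library with cells of all depths summed. Taken by detected genes per cell, astrocytes were above in every library at 400 to 600 genes (means 1169 against 446.8 CPM). At 600 to 800 genes they were above in all but library 4. With at least 800 genes they were above in library 3 alone (651.7, 777, 1291 and 719.3 against 653.3, 863.4, 782 and 791.1 CPM). Neurons had 464.6, 447, 476.7 and 436.8 CPM (456.3 ± 17.8, 4425 UMIs) and OPC 519.4, 225.7, 318.8 and 328 CPM (347.9 ± 123, 39 UMIs). With cells of all depths summed, the neurons lay below both later oligodendrocyte classes in all 4 libraries. In cells with 600 to 800 genes alone, neurons were above mature oligodendrocytes in all but library 4 (means 501.1 against 448.3 CPM). At 400 to 600 genes they were above in library 2 alone, and in the deepest cells in no library. The OPC of library 1 lay above the neurons while those of the other 3 libraries lay below. These sums are described without a test. Per cell, the order was different, with 1.78 UMIs in a neuron, 1.49 in a committed precursor, 1.08 in a mature oligodendrocyte, 0.898 in an astrocyte and 0.368 in an OPC. Neurons also had the most UMIs per cell. Barcodes with fewer than 100 detected genes, which were not kept as cells, had 288.5 ± 11.6 CPM of the 8 enzymes. The OPC mean differed from that level by less than the SD of the OPC libraries.

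**Figure D1:**
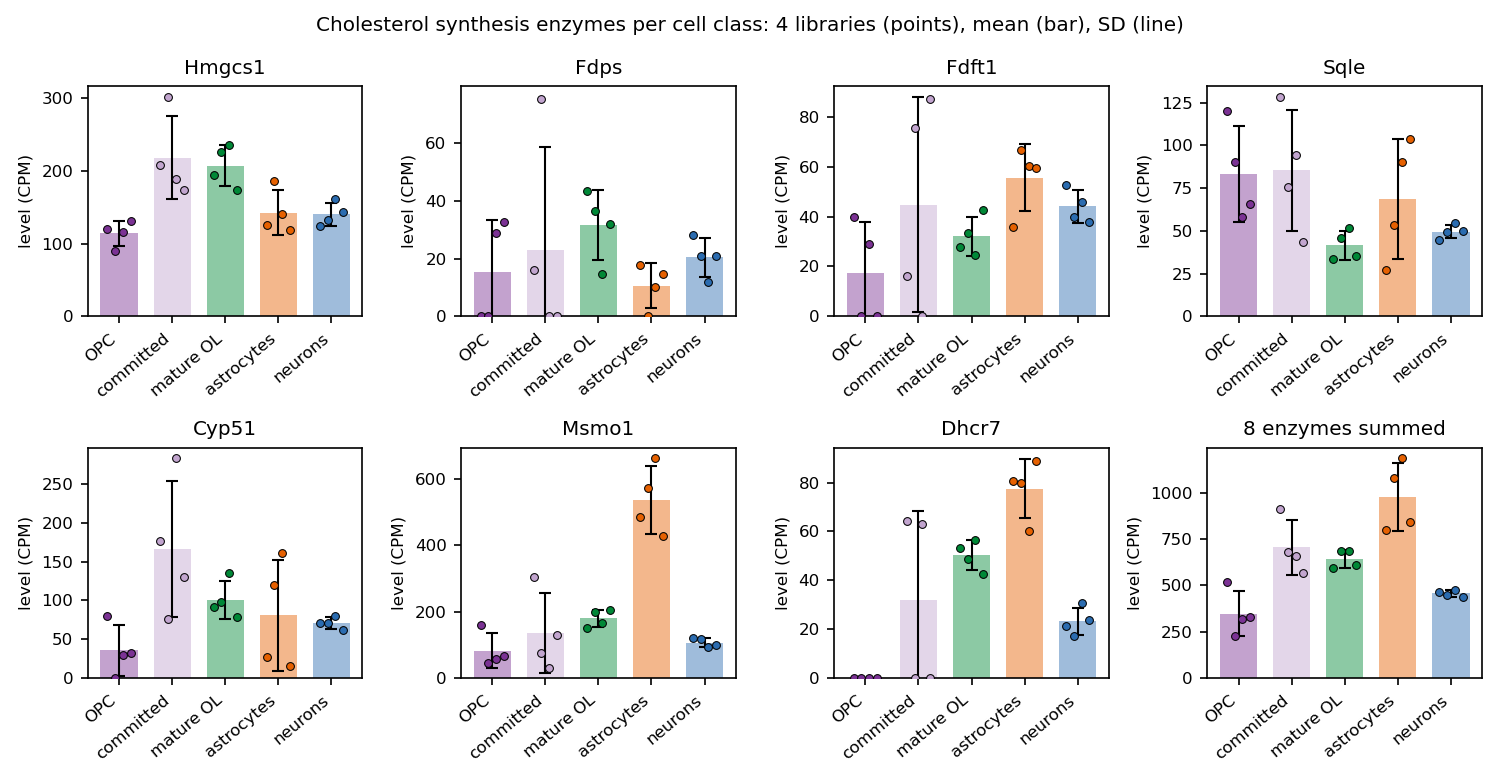
Levels in CPM (vertical axes, each with its own scale) of 7 of the enzymes and of the sum of all 8 in 5 cell classes (OL, oligodendrocytes); points are libraries 1 to 4 from left to right, bars the mean and lines 1 SD, cut at 0, and Idi1 is left out for its few UMIs. Msmo1 is highest in astrocytes in every library, with a mean of 537.4 CPM, while Hmgcs1 is higher in mature oligodendrocytes than in astrocytes in every library.

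Hmgcs1 was detected at the highest level in the later oligodendrocyte stages. It stood at 208.6, 301.7, 188.6 and 174.2 CPM in committed precursors (218.3 ± 57.4, 27 UMIs) and at 193.8, 225.7, 235.8 and 173.8 CPM in mature oligodendrocytes (207.3 ± 28.6, 317 UMIs). These 2 classes did not differ beyond their spread. Astrocytes, with 125.7, 186.4, 140.6 and 118.5 CPM (142.8 ± 30.5, 50 UMIs), and neurons, with 125, 132.4, 161.1 and 144.2 CPM (140.7 ± 15.7, 1321 UMIs), did not differ beyond their spread. OPC were the lowest at 119.9, 90.28, 115.9 and 131.2 CPM (114.3 ± 17.3, 13 UMIs). With cells of all depths summed, mature oligodendrocytes were above astrocytes, neurons and OPC in each library, but not among the shallower cells taken alone. Idi1 was barely detected in any class, with 8 UMIs in neurons, 1 in mature oligodendrocytes, 1 in astrocytes and 0 in OPC and committed precursors. A count of 0 allows up to 26.7 CPM in OPC and 23.0 CPM in committed precursors (3 counts of the class total, for counting error only), so no order of the classes can be read for it.

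Fdps was at 43.51, 36.6, 14.74 and 31.92 CPM in mature oligodendrocytes (31.7 ± 12.3, 49 UMIs) and at 28.36, 20.83, 11.93 and 20.87 CPM in neurons (20.5 ± 6.72, 219 UMIs). Both classes were lowest in library 3, and mature oligodendrocytes were higher in each of the 4 libraries. Astrocytes gave 4 Fdps UMIs, and OPC and committed precursors 2 each. Fdft1, which commits carbon to sterols, was at 35.92, 66.57, 60.24 and 59.25 CPM in astrocytes (55.5 ± 13.5, 19 UMIs) and at 52.78, 39.68, 45.74 and 37.94 CPM in neurons (44.0 ± 6.72, 443 UMIs). In mature oligodendrocytes it was at 27.69, 33.55, 24.56 and 42.56 CPM (32.1 ± 7.91, 47 UMIs), which overlaps the neurons. Mature oligodendrocytes lay below neurons in 3 of 4 libraries.

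Sqle makes the epoxide of squalene and is known as a second control point of the pathway. It was at 119.9, 90.28, 57.96 and 65.59 CPM in OPC (83.4 ± 27.9, 9 UMIs) and at 128.3, 75.43, 94.32 and 43.54 CPM in committed precursors (85.4 ± 35.5, 13 UMIs). Astrocytes had 26.94, 53.26, 90.36 and 103.7 CPM (68.6 ± 35.0, 23 UMIs), neurons 44.89, 49.11, 54.36 and 49.79 CPM (49.5 ± 3.88, 468 UMIs) and mature oligodendrocytes 33.62, 45.75, 51.58 and 35.47 CPM (41.6 ± 8.53, 63 UMIs). Unlike the sum of the enzymes, Sqle had its highest means in the 2 precursor classes, but on few UMIs. Mature oligodendrocytes were below neurons in all 4 libraries, by less than the spread between libraries of the mature class in libraries 2 and 3.

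Cyp51 was at 176.5, 75.43, 283 and 130.6 CPM in committed precursors (166.4 ± 88.0, 24 UMIs) and at 90.98, 97.61, 135.1 and 78.03 CPM in mature oligodendrocytes (100.4 ± 24.5, 155 UMIs). Neurons had 71.0, 70.9, 79.6 and 61.7 CPM (70.8 ± 7.31, 681 UMIs), below mature oligodendrocytes in every library. Astrocytes scattered from 14.81 CPM in library 4 to 160.6 CPM in library 3 (80.6 ± 71.1, 29 UMIs), so the position of their mean was not settled by these libraries. OPC gave 4 Cyp51 UMIs (35.4 ± 33.1 CPM).

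Msmo1 set astrocytes apart. It stood at 484.9, 572.5, 662.6 and 429.6 CPM in astrocytes (537.4 ± 102, SD, n = 4, 192 UMIs) and at 152.3, 198.3, 164.6 and 205.7 CPM in mature oligodendrocytes (180.2 ± 25.8, 267 UMIs). Neurons had 120.1, 116.1, 92.8 and 98.2 CPM (106.8 ± 13.3, 1068 UMIs). The lowest astrocyte library was above every library of the other classes. With cells of all depths summed, the lowest mature library was above every neuron library. Committed precursors ranged from 31.4 CPM in library 3 to 304.8 CPM in library 1 (135.6 ± 120, 24 UMIs), and OPC had 82.1 ± 52.5 CPM from 9 UMIs. With Msmo1 left out of the sum, astrocytes (439.3 ± 95.8 CPM) and mature oligodendrocytes (464.0 ± 51.0 CPM) no longer differed beyond their spread, and neurons were at 349.5 ± 23.6 CPM.

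With cells of all depths summed, Dhcr7 was also highest in astrocytes, at 80.82, 79.89, 60.24 and 88.87 CPM (77.5 ± 12.2, 27 UMIs). Mature oligodendrocytes had 53.4, 48.8, 56.5 and 42.56 CPM (50.3 ± 6.06, 78 UMIs) and neurons 21.21, 17.36, 30.5 and 23.71 CPM (23.2 ± 5.52, 217 UMIs). The 3 classes did not overlap on these sums. Among cells with at least 800 genes the order was another. There astrocytes gave 1 Dhcr7 UMI (mean 11.64 CPM), against means of 57.04 CPM in mature oligodendrocytes and 23.37 CPM in neurons. At 1000 UMIs per cell, 3.77% ± 3.75 of astrocytes (library 4 with only 6 cells) and 4.07% ± 1.14 of mature oligodendrocytes had a Dhcr7 UMI. OPC gave 0 Dhcr7 UMIs of 112184, which allows up to 26.7 CPM. Pooled over all libraries, Dhcr7 stood at 76.4 CPM in astrocytes and 51.2 CPM in mature oligodendrocytes, 2.86 and 1.92 times that limit. These ratios leave out the counting error of the 2 levels and the spread between libraries. The lower 95% limits of the 2 levels for counting error were 50.3 and 40.5 CPM, against an upper limit of 32.9 CPM in OPC. The pooled neuron level of 22.4 CPM lies under the OPC limit. Committed precursors had 6 Dhcr7 UMIs, in libraries 1 and 3.

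The make-up of the UMIs of the 8 enzymes was compared next, without a test. In astrocytes Msmo1 made up 60.7%, 53.1%, 55.9% and 50.9% of the UMIs of the 8 genes in libraries 1 to 4 (55.1% ± 4.23). It made up 28.1% ± 4.29 in mature oligodendrocytes and 23.4% ± 3.10 in neurons, without overlap with astrocytes. Hmgcs1 made up 14.7% in astrocytes, 32.1% in mature oligodendrocytes, 30.8% in neurons, 34.9% in OPC and 31.7% in committed precursors, as means of the libraries. Sqle took the largest mean share in OPC, 25.3%, against 6.41% in mature oligodendrocytes, from 39 enzyme UMIs in all OPC. These shares need no scaling between classes, but they add up to the whole, so a high share of Msmo1 lowers all others.

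**Figure D2:**
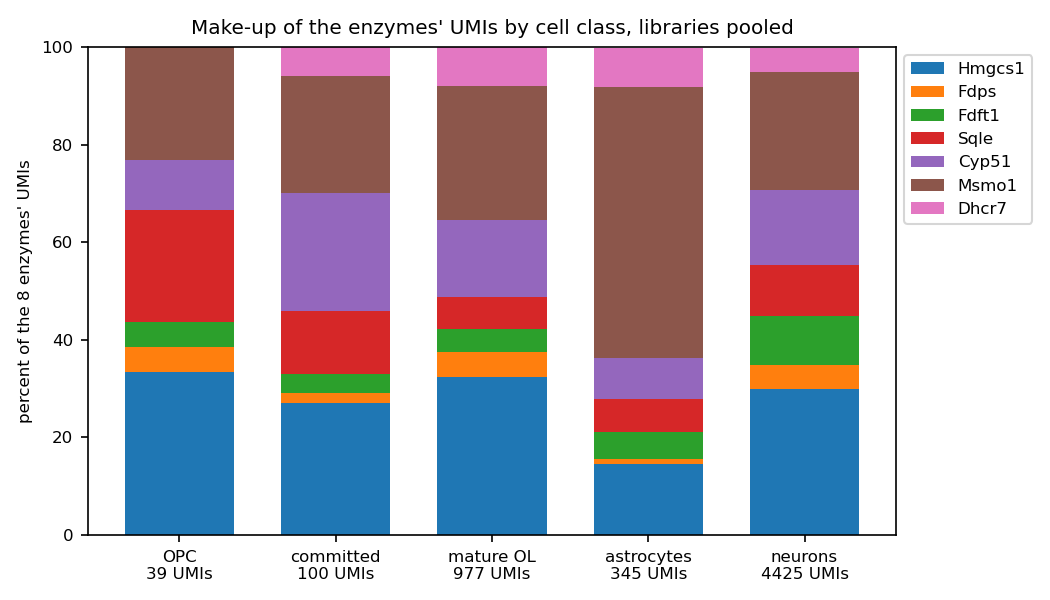
Share of each enzyme in the UMIs of the 8 enzymes (vertical axis, percent, libraries pooled) in each cell class (horizontal axis, with the UMIs behind it); Idi1, with 8 UMIs in neurons and 1 or 0 in the other classes, is too small to draw. Msmo1 fills 55.7% of the astrocyte bar, against 27.3% in mature oligodendrocytes and 24.1% in neurons.

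Astrocytes were the shallowest class, so the levels were also read by the number of detected genes per cell, a choice made after the values were seen. Msmo1 in astrocytes was at 708.5, 659.6, 939.5 and 461.8 CPM in cells with 400 to 600 genes (249 cells). It was at 323.3, 523, 385.4 and 417 CPM in cells with 600 to 800 genes (97 cells). In cells with at least 800 genes it was at 325.9, 388.5, 586.6 and 239.8 CPM (38 cells, 25 UMIs). The mean thus moved from 692.4 to 385.2 CPM between the shallowest and deepest cells. In mature oligodendrocytes Msmo1 went the other way, from a mean of 121.1 to one of 204.8 CPM, and Hmgcs1 from 109.7 to 262.5 CPM. At each of the 3 depths, Msmo1 was higher in astrocytes than in mature oligodendrocytes in every library. Set against neurons at 600 to 800 genes, Msmo1 in mature oligodendrocytes was at a mean of 141.7 against 144.6 CPM, lower in libraries 1 and 3. The order of Hmgcs1 changed with depth. In cells with 400 to 600 genes mature oligodendrocytes (109.7 CPM, 20 UMIs) were below astrocytes (144.7 CPM, 26 UMIs) in 3 of 4 libraries. In cells with 600 to 800 genes they were at 131.2 CPM against 168.5 CPM in neurons, again lower in 3 of 4 libraries. In the deepest cells they were above neurons (141 CPM) in 4 of 4 libraries and above astrocytes (229 CPM) in 3 of 4. What part depth plays in the differences between classes was not tested further than these values.

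**Figure D3:**
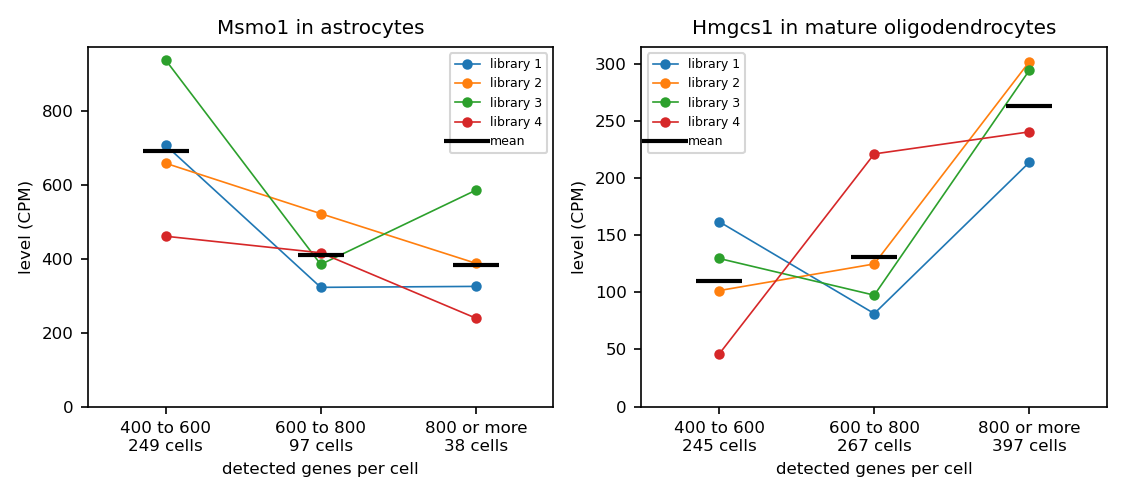
Level in CPM (vertical axes) by detected genes per cell in 3 bins (horizontal axes, with the number of cells) for Msmo1 in astrocytes and Hmgcs1 in mature oligodendrocytes; coloured lines are libraries and black bars the means. The mean of Msmo1 goes from 692.4 to 385.2 CPM as cells get deeper, and that of Hmgcs1 from 109.7 to 262.5 CPM.

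The classes were compared with edgeR's quasi-likelihood test on UMI sums per class and library, with library as a block and p-values adjusted by the Benjamini-Hochberg method over all genes tested. One fit over the 5 classes tested 3565 genes. Hmgcs1, Cyp51 and Msmo1 passed its filter on low counts and the other 5 enzymes did not. Fits of 2 classes alone, which hold the deeper classes to a lower minimum, tested 7 of the 8 in each class against neurons (all but Idi1), and the filter kept genes through the deep neuron sums. All log2 values below are differences on this fitted scale.

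Mature oligodendrocytes were compared with neurons first, as the 2 classes with the most UMIs. All 3 enzymes tested in the common fit were higher in mature oligodendrocytes, where 37% of all tested genes were called higher. Hmgcs1 differed by a log2 of 1.04 (SE 0.13, adjusted p 4.08e-12 with edgeR), Cyp51 by 0.95 (SE 0.19, adjusted p 3.25e-06) and Msmo1 by 1.19 (SE 0.15, adjusted p 3.72e-12), each in 4 of 4 libraries. The fit of these 2 classes alone called 5 of 7 enzymes higher, with 29.9% of its 9471 genes called higher. It added Dhcr7 (1.58, SE 0.24, adjusted p 6.25e-09) and Fdps (1.06, SE 0.28, adjusted p 5.03e-04). Fdft1 (-0.09, SE 0.25, adjusted p 0.765) and Sqle (0.18, SE 0.22, adjusted p 0.469) were not past the threshold. The 7 enzymes had a median log2 of 1.01, beside -0.17 over all genes of that fit. With total UMIs as the scale, the median of all genes in the common fit moved from -0.07 to -0.54 and the split of calls from 37% higher and 40.9% lower to 27.5% and 55%. On that scale Hmgcs1 (0.57), Cyp51 (0.48), Msmo1 (0.72), Dhcr7 (1.14) and Fdps (0.62) were still called higher, by smaller differences, and Fdft1 was called lower (-0.53, adjusted p 0.0414 with edgeR). In the fit of 2 classes on that scale 21.1% of all genes were called higher and 53.6% lower.

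Astrocytes were higher than neurons in Msmo1 by a log2 of 2.64 (SE 0.18, adjusted p 7.55e-28 with edgeR), in 4 of 4 libraries. It was the 1 enzyme called of 3 tested, with 31.6% of all tested genes called higher. Hmgcs1 (0.32, 95% interval -0.15 to 0.78) and Cyp51 (0.46, -0.20 to 1.12) were not past the threshold, and each was higher in astrocytes in 2 of 4 libraries. Without library 1, where astrocytes had 26.94 CPM of Cyp51, Cyp51 was called higher (0.80, adjusted p 0.0491 with edgeR). In the fit of these 2 classes alone, 2 of 7 enzymes were called higher, where 21.5% of 9378 genes were, Msmo1 (2.40) and Dhcr7 (1.81, SE 0.40, adjusted p 2.57e-05), the latter in 4 of 4 libraries. Fdft1 (0.34), Sqle (0.48) and Fdps (-0.80, SE 0.75) were not past it. The median of the 7 was 0.34, beside -0.32 over all genes of that fit. With total UMIs as the scale of the common fit, the median of all genes moved from -0.25 to -0.55, and Msmo1 was at 2.33 and still called, with 27% of all genes called higher.

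Set against mature oligodendrocytes, astrocytes were higher in Msmo1 and lower in Hmgcs1. The Msmo1 difference was a log2 of 1.45 (SE 0.18, adjusted p 8.68e-12 with edgeR), where 25.3% of all genes were called higher, and the Hmgcs1 difference was -0.72 (SE 0.23, adjusted p 0.00536), where 29.4% were called lower. Both held in 4 of 4 libraries. Cyp51 was not past the threshold (-0.49, SE 0.33, adjusted p 0.210). In the fit of these 2 classes alone, Dhcr7 (0.56, SE 0.37, adjusted p 0.189) and Sqle (0.61, SE 0.40, adjusted p 0.186) were not past it either. Among cells with at least 800 genes the Msmo1 difference was 0.73 (adjusted p 0.159 with edgeR) and the Hmgcs1 difference -0.87 (adjusted p 0.145), neither past it. The median over all genes was -0.37 there. Library 4 had only 4 astrocytes at that depth, so its astrocyte sum was left out of that fit. Without library 1 (-0.58, adjusted p 0.0794) or library 3 (-0.55, adjusted p 0.0904) the Hmgcs1 call was lost, as it was with a mitochondrial limit of 5% (-0.66, adjusted p 0.0594). With total UMIs as the scale the median of all genes moved from -0.03 to 0.13, and Msmo1 (1.62) and Hmgcs1 (-0.56) were both still called, with 29.1% of all genes called higher and 25.2% lower.

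**Figure D4:**
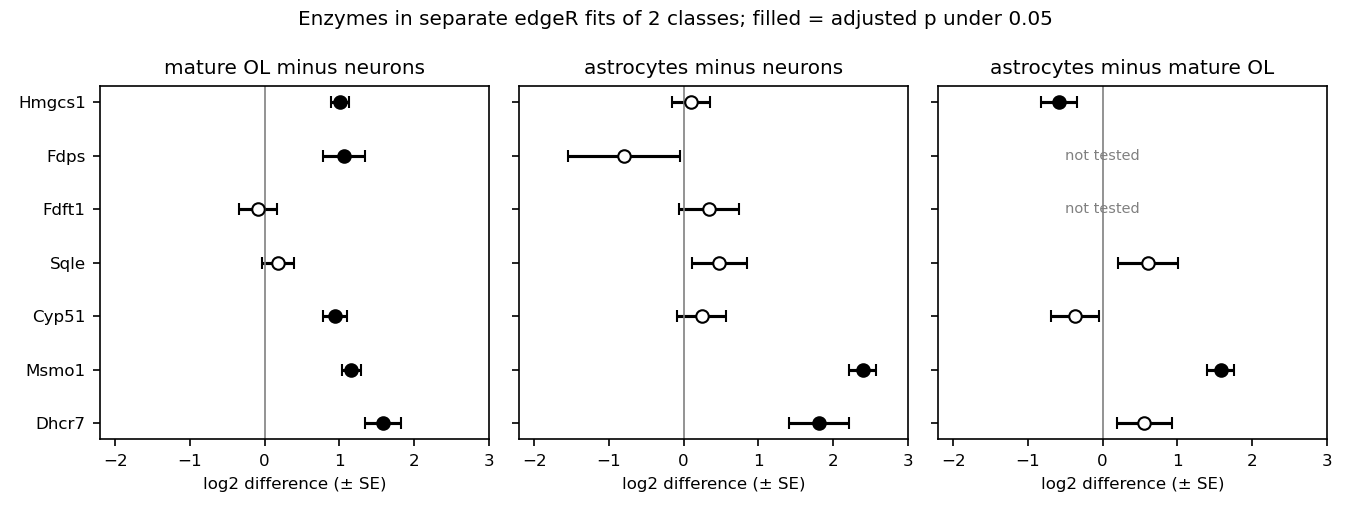
Difference between classes on the log2 scale of edgeR (horizontal axes, point ± SE) for the enzymes (vertical axis) in fits of 2 classes alone, with OL for oligodendrocytes; filled points passed an adjusted p of 0.05. Msmo1 stands farthest to the right for astrocytes minus neurons, at 2.40, and 5 of 7 enzymes are filled for mature oligodendrocytes minus neurons.

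Along the oligodendrocyte lineage, OPC were lower than mature oligodendrocytes in the 3 enzymes tested, Hmgcs1 (-1.45, SE 0.37, adjusted p 5.54e-04 with edgeR), Cyp51 (-2.10, SE 0.64, adjusted p 0.00402) and Msmo1 (-1.72, SE 0.46, adjusted p 9.17e-04). Of all tested genes 23.2% were called lower. Hmgcs1 and Cyp51 were lower in 4 of 4 libraries and Msmo1 in 3 of 4. On the scale of total UMIs the differences were -0.86 (adjusted p 0.0636), -1.51 (0.0596) and -1.12 (0.0478), so that Msmo1 alone was still called on that scale. The Msmo1 call was itself lost among cells with at least 800 genes (-1.30, adjusted p 0.0525 with edgeR) and with cells thinned to 1000 UMIs (-1.34, adjusted p 0.118). Both of these fits left out the OPC sum of library 4, which had 5 and 6 cells there. On the scale of total UMIs the median of all genes moved from -0.01 to 0.58, with 35.2% of genes called higher and 13.5% lower, against 24.1% and 23.2%.

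Committed precursors were higher than OPC in Cyp51 by a log2 of 2.41 (SE 0.73, adjusted p 0.0207 with edgeR), in 4 of 4 libraries, where 5.55% of genes were called higher. Hmgcs1 (0.91, adjusted p 0.310) was also higher in 4 of 4 libraries and Msmo1 (1.19, adjusted p 0.255) in 3 of 4, and neither was past the threshold. The Cyp51 call rests on 24 UMIs against 4, was not made by DESeq2 (2.33, adjusted p 0.0579), and was lost without library 1 (2.93, adjusted p 0.0625 with edgeR), while without library 3, and in the fit of these 2 classes alone, the gene did not pass the filter. Between committed precursors and mature oligodendrocytes edgeR called 0 of 3 enzymes, 0 at an unadjusted p under 0.05 and 0 with DESeq2, where 39.3% of all genes were called. The differences were -0.55 for Hmgcs1 (95% interval -1.13 to 0.04), 0.30 for Cyp51 (-0.44 to 1.04) and -0.53 for Msmo1 (-1.20 to 0.14). Library 1, with 304.8 CPM of Msmo1 in committed precursors, decided the last value, and without it Msmo1 was called lower (-1.99, adjusted p 0.00254 with edgeR). Hmgcs1 was called lower among cells with at least 800 genes (-0.93, adjusted p 0.0263 with edgeR) and with no filter on low counts (-0.92, adjusted p 0.0385). The first of these fits left out the committed precursors of library 2, with 4 cells. There Hmgcs1 stood at 504.8 CPM, against 301.7 CPM in mature oligodendrocytes. In libraries 1, 3 and 4 it was lower in committed precursors at that depth. On the scale of total UMIs Hmgcs1 (0.02) and Msmo1 (0.04) lay on the other side of 0, and Cyp51 was at 0.87 (unadjusted p 0.0283, adjusted p 0.0626 with edgeR). There the median of all genes was at 0.51 in place of -0.04, and 31.6% of genes were called higher and 11.6% lower, against 19.2% and 20.1%.

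Against OPC, astrocytes were higher in Msmo1 by a log2 of 3.17 (SE 0.40, adjusted p 5.82e-11 with edgeR), in 4 of 4 libraries, where 14.5% of genes were called higher. Hmgcs1 (0.73, adjusted p 0.238) and Cyp51 (1.62, adjusted p 0.0950) were not past the threshold, and without library 1 Cyp51 was (2.70, adjusted p 0.0142 with edgeR). The gate that assigns cells asks that a lineage hold at least 3 times the marker UMIs of any other. With 2 times Cyp51 was called higher (1.82, adjusted p 0.0477), and with 5 times Hmgcs1 was (1.64, adjusted p 0.0246). On the scale of total UMIs, with a median of all genes of -0.46 and 9.9% called higher and 24.3% lower against 14.5% and 15.3%, Msmo1 was at 2.74. Between OPC and neurons edgeR called 0 of 3 enzymes, 0 at an unadjusted p under 0.05 and 0 with DESeq2, where 50.7% of all genes were called. The fit of these 2 classes alone called 0 of 7 (30.1% of genes called), 2 of them at an unadjusted p under 0.05, and DESeq2 called 0 of the 3 it was run on. With the gate at 5 times Hmgcs1 was called lower in OPC (-1.33, adjusted p 0.0349 with edgeR). With no filter on low counts Cyp51 (-1.77, adjusted p 0.0399 with edgeR) and Dhcr7 were called lower, where 12.8% of 19353 genes were. Dhcr7 had 0 UMIs in OPC, which allows up to 26.7 CPM, above the pooled neuron level of 22.4 CPM. A lower Dhcr7 level in OPC therefore cannot be read from that count. With 39 enzyme UMIs in OPC the intervals were wide, such as -1.21 to 0.38 for Hmgcs1 and -1.54 to 0.47 for Msmo1. With total UMIs as the scale the median of all genes moved from -0.13 to 0.00, and Hmgcs1 was at -0.29.

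Within neurons, the 8 enzymes summed to 459.5, 445.9, 469.6 and 435.9 CPM in 2108 GABAergic cells (452.7 ± 14.8) and to 513.1, 485.7, 511.5 and 511.5 CPM in 82 glutamatergic cells (505.4 ± 13.2). The glutamatergic sum was higher in every library, library 3 with only 8 such cells. Libraries 1, 2 and 4 held enough glutamatergic cells for a test. There edgeR called 0 of 7 enzymes, 0 at an unadjusted p under 0.05 and 0 with DESeq2, where 1.97% of 9397 genes were called. For GABAergic against glutamatergic neurons Cyp51 was at -0.56 (95% interval -1.15 to 0.03), Msmo1 at -0.30 (-0.79 to 0.19), Fdft1 at 0.44 (-0.37 to 1.25) and Fdps at 0.45 (-0.68 to 1.57). Cyp51 rested on library 1, without which it was at 0.02.

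Mature oligodendrocytes are known to fall into groups marked by Klk6 and by Opalin. The marker rule put 878 of 909 mature cells in the Opalin group and 0 in the Klk6 group. A second split was made after seeing this and is given as values only. It set cells with more Klk6 than Opalin and Il33 UMIs (43 cells) beside those with more Opalin and Il33 (548 cells). The rules were unlike, since cells of the second group needed at least 2 Opalin and Il33 UMIs, while 1 Klk6 UMI was enough for the first. Hmgcs1 was at 466.3, 173.4, 509.5 and 367.1 CPM in the first (34 UMIs) and 188.7, 237, 200.6 and 134.7 CPM in the second (199 UMIs). The first was higher in libraries 1, 3 and 4 and lower in library 2. Sqle was at 127.2, 115.6, 78.39 and 104.9 CPM against 30.08, 41.58, 54 and 25.66 CPM, higher in all 4 libraries, on 9 against 39 UMIs. These 2 enzymes were singled out after their values were seen, and the others did not all go the same way. Cyp51 was lower in the first in libraries 1, 2 and 4 (107.5 against 111.4 CPM as means), and Fdps had 1 against 38 UMIs (14.45 against 36.82 CPM). Fdft1 (68.35 against 34.33 CPM) was higher in 3 of 4 libraries. Msmo1 (201.7 against 154.9 CPM) was higher in libraries 1 and 3. Dhcr7 stood at 64.24 against 49.66 CPM. The median depth was 1783 UMIs in the first and 1514 in the second, and its part in these values was not tested.

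At a common depth of 1000 UMIs per cell, 56.1% ± 10.5 of astrocytes had a UMI of at least 1 of the 8 enzymes (SD, n = 4, 114 cells, 270 shallower cells left out). Library 4 gave 71.7% from only 6 astrocytes, against 48.9%, 50.7% and 53.0% in libraries 1 to 3. The share was 39.6% ± 1.81 in mature oligodendrocytes (689 cells), 37.7% ± 12.7 in committed precursors (53), 33.0% ± 0.850 in neurons (2163) and 31.7% ± 4.53 in OPC (45). Vascular cells, set beside them as a class outside the comparisons, had 7.68% ± 13.7 (27 cells, a share of 0 in libraries 3 and 4). How much of their UMIs is free RNA was not tested. Their level of the 8 enzymes, 148.8 ± 89.7 CPM, lay below the 288.5 CPM of barcodes with fewer than 100 genes. Without thinning the shares were 53.0%, 48.4%, 50.5%, 63.0%, 29.2% and 17.2% in the same order, at median depths of 816.5, 1380, 1672, 3246, 907 and 914.5 UMIs. Neurons had the largest share without thinning and astrocytes the largest at a common depth. For Msmo1 alone, the share at 1000 UMIs was 33.5% ± 12.1 in astrocytes, 14.7% ± 2.77 in mature oligodendrocytes, 9.25% ± 1.20 in neurons and 0.657% in vascular cells.

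The other genes around the pathway were read as 4 lists in the fits of 2 classes. Of 12 other enzymes, all 12 were tested between mature oligodendrocytes and neurons, and 6 were higher and 0 lower in mature oligodendrocytes (median 0.54, beside -0.17 over all genes), where 29.9% of all genes of that fit were called higher and 40.2% lower. The sterol isomerase Ebp led with 78.85 against 26.95 CPM (log2 1.97, SE 0.21, adjusted p 6.29e-15 with edgeR), before Sc5d, a desaturase (1.76), Mvd (1.26) and the lanosterol synthase Lss (1.03). On the scale of total UMIs 3 of the 12 were higher and 2 lower, beside 21.1% and 53.6% of all genes, among the latter Pmvk (-0.56), an early kinase. Of 11 tested between astrocytes and neurons, 5 were higher and 0 lower (median 0.83, beside -0.32 over all genes), where 21.5% of all genes were called higher and 32.9% lower. They were led by the sterol reductase Tm7sf2 (2.23, 55.2 against 12.3 CPM), Sc5d (1.33) and Lss (1.05), and 3 were higher on the scale of total UMIs, a share near the 20.3% of all genes called higher there. Ebp, which was higher in mature oligodendrocytes, was at -0.42 in astrocytes against neurons on that scale and was not past the threshold. Between OPC and neurons 0 of 11 were called in that fit, where 30.1% of all genes were.

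Sc5d also differed within the oligodendrocyte lineage. In the common fit it was lower in committed precursors than in mature oligodendrocytes (-2.16, adjusted p 9.71e-04 with edgeR) and lower in OPC (-2.68, adjusted p 3.54e-04), and it was higher in astrocytes than in OPC (2.44, adjusted p 0.00641). These calls were also made, in the same direction, on the scale of total UMIs.

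Of 11 regulators, 10 were tested between mature oligodendrocytes and neurons, 5 higher and 2 lower (median 0.58), beside 29.9% and 40.2% of all genes. Insig1, which holds the SREBP machinery in the endoplasmic reticulum, was higher (69.33 against 20.3 CPM, log2 2.21, adjusted p 3.70e-16 with edgeR), while its relative Insig2 was lower (50.66 against 144.9 CPM, -1.09, adjusted p 1.47e-08). Erlin2 was higher (1.09) and the sterol carrier Stard4 lower (-1.33). Scaled to total UMIs, 2 were higher and 2 lower, beside 21.1% and 53.6% of all genes. In astrocytes against neurons 2 of 10 were higher and 1 lower (median 0.37), the latter Insig2 (70.64 against 144.9 CPM, -0.92). The share called higher was near the 21.5% of all genes, and 32.9% of all genes were called lower.

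Of 14 genes for sterol transport, storage and breakdown, 9 were tested in mature oligodendrocytes against neurons, 6 higher and 3 lower (median 2.10), beside 29.9% and 40.2% of all genes. Apoe, the main lipoprotein of the brain (1232 against 18.0 CPM, log2 6.61), and the lysosomal transporter Npc1 (4.48) were higher, and the lipoprotein receptor Lrp1 (-3.68) and Cyp46a1, which turns cholesterol into a form that leaves the brain (-3.48), were lower. In astrocytes against neurons 7 of 10 were higher and 2 lower (median 2.58), beside 21.5% and 32.9% of all genes. Apoe stood at 17558 CPM in astrocytes, and Lcat (8.90), the exporter Abca1 (5.76) and Soat1, which esterifies cholesterol (4.41), were also higher. The neuron level of Lcat was 0.0617 CPM, so that its log2 value depends on a count near 0.

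Fatty acid synthesis, which the related factor Srebf1 is known to control, was read for comparison. Of 12 genes, 11 were tested in mature oligodendrocytes against neurons, and 9 were higher and 0 lower, beside 29.9% and 40.2% of all genes. Scd1 (6.16), Srebf1 (4.50), Scd2 (4.26, 3858 against 267.6 CPM) and Elovl5 (2.79) led. In astrocytes against neurons 10 of 12 were higher and 0 lower, beside 21.5% and 32.9% of all genes, led by Srebf1 (6.37), Fads2 (5.03), Scd1 (5.02) and Fads1 (3.59). On the scale of total UMIs 9 and 10 were higher and 1 was lower in each. Of all genes there, 21.1% were higher and 53.6% lower in mature oligodendrocytes, and 20.3% higher and 34.9% lower in astrocytes. The median log2 of this list was 2.10 in mature oligodendrocytes and 2.69 in astrocytes, beside 1.01 and 0.34 for the enzymes of cholesterol synthesis in the same fits.

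**Figure D5:**
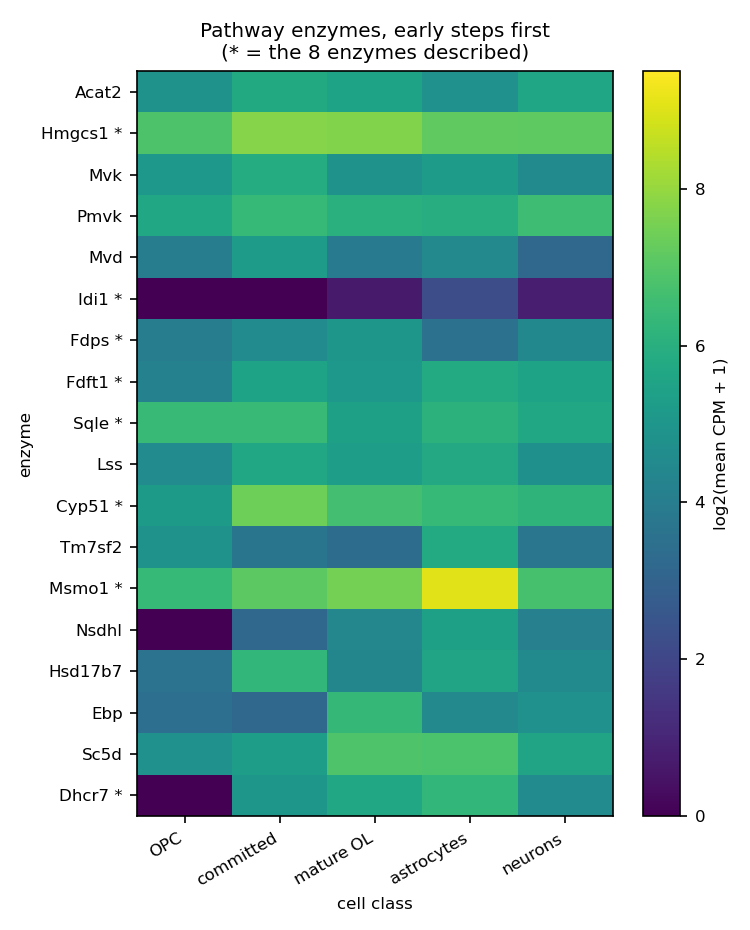
Heat map of enzymes of cholesterol synthesis, early steps at the top (rows, the 8 enzymes described here starred), by cell class (columns; OL, oligodendrocytes), coloured by log2 of the mean CPM plus 1. Msmo1 is brightest in astrocytes, Ebp is brighter in mature oligodendrocytes than in neurons, and Idi1 is dark throughout.

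Across the 20 class and library sums, the genes whose log2(CPM + 1) was most like that of the summed enzymes, of 8034 searched, were Ppt2 (Pearson's r 0.816), Tcirg1 (0.813), Acsl3 (0.801), Gramd3 (0.794) and Nhsl1 (0.788). Of these, 4 had their highest mean in astrocytes, such as the acyl-CoA synthetase Acsl3 with 1826 CPM there and 172.9 CPM in neurons, and Ppt2 had it in committed precursors. Among the enzymes themselves the r over the 20 sums was 0.66 for Cyp51 with Hmgcs1, 0.59 for Msmo1 with Fdft1 and 0.57 for Msmo1 with Dhcr7. It was 0.07 for Msmo1 with Hmgcs1. Sqle ran from -0.36 to -0.07 with the other enzymes. These correlations are descriptions, since sums share libraries and differ in depth, and those with few UMIs scatter most.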

How the data were processed

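Single-cell RNA was measured by Drop-seq in 4 libraries of BNST punches, each a pool of 6 male mice. The authors deposited 1 table of whole-number UMI counts per gene and barcode for each library, not normalized. Per the submitters' processing notes, reads were handled with bcl2fastq 2.18.0.12, STAR 2.4.2a and Picard 2.2.4 on mm10 (GRCm38). The annotation, the strand used in counting and the choice of barcodes are not given in the sources used here. Reads were tagged at the transcript end, per the labels' protocols, so levels do not scale with transcript length.

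Cells were kept with at least 400 detected genes, at most 10% mitochondrial UMIs and no doublet call (Scrublet in scanpy 1.11.5, expected rate 0.05), which left 4181 of 4239 cells after 58 doublets (1.37%). Doublet calls were run per library. A cell joined a lineage with at least 4 marker UMIs from at least 3 genes and at least 3 times the UMIs of every other lineage. Oligodendroglial cells were committed precursors with at least 2 genes of the committed list, and otherwise OPC or mature by the same ratio of 3. Of the kept cells 3959 fell in the 5 classes and 144 in no class. The marker genes Lhfpl3 and 9630013A20Rik are not listed in the tables. The enzymes and the gene lists were chosen with earlier results of these data known. Added after seeing the values were the scaling to total UMIs, the reading by genes per cell and the second split of mature cells.

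UMIs were summed per class and library and tested with edgeR 4.0.16 (R 4.3.3; quasi-likelihood F-test, TMM, filterByExpr, library as block). P-values were adjusted by the Benjamini-Hochberg method over all genes tested, with a threshold of 0.05. DESeq2 1.42.0 was an alternative. A sum needed at least 10 cells (5 for committed precursors), so the glutamatergic neurons of library 3 were left out of their test. All classes of a library come from the same pool of mice, so same-numbered sums are paired by design. Levels are CPM per class and library, as mean and SD over the 4 libraries. A limit at 0 UMIs is 3 counts of the class total and covers counting error only. Shares of cells were read after thinning each cell to 1000 UMIs, with shallower cells left out. Named genes outside the 8 were, per list and comparison, up to 4 with the largest differences past the threshold and of one direction in every library. Sc5d in the common fit and Pmvk on the scale of total UMIs were named after their values were seen. Some genes counted in the lists are not reported here by name. The genes most like the enzymes were the 5 with the highest Pearson correlation among those with a mean of at least 20 CPM. The programs were tested on simulated data. Python 3.11.15, numpy 2.4.6, pandas 2.3.3 and matplotlib 3.10.9 were used besides.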

Additional observations from a re-analysis of the deposited data

Results flagged for a closer look

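Outside the classes compared, the 8 enzymes were also found in vascular cells, with 13 UMIs over 64 cells (148.8 ± 89.7 CPM, SD, n = 4 libraries), none of them Dhcr7, Fdft1 or Sqle. Kept cells that met no marker rule held 48 UMIs of the 8 enzymes over 144 cells (341.4 ± 180 CPM, n = 4 libraries). Both are given because these cells entered no test between classes and held more UMIs than the 3 that a count of 0 allows. The vascular level lay below the 288.5 CPM of barcodes with fewer than 100 genes, and that of the cells with no class differed from it by less than 1 SD of its libraries, so neither is shown to lie above near-empty barcodes. In a search over 40 sets of values, each of the 4 libraries, 0 sets held a library that stood apart, and chance would give about 2.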

How the results depend on the processing

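Of the enzymes' log2 differences under all alternatives, 541 kept their direction and side of the threshold, 14 lost a call, 10 gained one and 17 changed direction. Of the counts of enzymes called, 129 held and 31 moved. The replicate block moved no count of enzymes called. With no replicate block, 111 genes in all were called between GABAergic and glutamatergic neurons against 185, and Cyp51 between committed precursors and OPC was at 2.39 and still called. For OPC against mature oligodendrocytes, the enzymes called were 3, and 1 on the scale of total UMIs, in the common fit and in that of 2 classes, and 0 with cells thinned to 1000 UMIs. For committed precursors against OPC the 1 call became 0 with a mitochondrial limit of 5%, with DESeq2, with no filter on low counts and with thinned cells, and was 0 to 1 when single libraries were left out. Against mature oligodendrocytes, committed precursors gave 0 calls, 1 with at least 800 genes per cell, 1 with no filter, and 0 to 1 without single libraries. For astrocytes against mature oligodendrocytes the 2 calls became 0 with at least 800 genes per cell, 1 with a limit of 5% and 1 with thinned cells, and were 1 to 2 without single libraries. For astrocytes against OPC the 1 call became 2 with the lineage gate at 2 times or 5 times and with no filter, and was 1 to 2 without single libraries. For astrocytes against neurons the 1 call became 2 with no filter and in the fit of 2 classes on either scale, and was 1 to 2 without single libraries. For OPC against neurons the 0 calls became 1 with the gate at 5 times and 2 with no filter. For mature oligodendrocytes against neurons the 3 calls became 5 with no filter, 5 in the fit of 2 classes, 6 in that fit on the scale of total UMIs, and 1 with thinned cells. Among the 5 classes, fits with no filter tested 8 enzymes and thinned cells 1, in place of 3. Library 4 had too few OPC and astrocytes for a sum with thinned cells. At 800 genes or more it did too, and library 2 had too few committed precursors. Fits of 2 classes tested 7 against neurons, but 1 for astrocytes and 0 for committed precursors against OPC, so that the 1 call there was not tested. Other causes were not tested.

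Directions changed in values that were not past the threshold. For committed precursors against mature oligodendrocytes, Cyp51 was at -0.07 with no filter, Hmgcs1 at 0.02 and Msmo1 at 0.04 on the scale of total UMIs, and 0.03 and 0.01 in the fit of 2 classes on that scale. For astrocytes against neurons with no filter, Hmgcs1 was at -0.20 and Cyp51 at -0.06. For GABAergic against glutamatergic neurons, Dhcr7 was at 0.40 with a mitochondrial limit of 5% and from -0.83 to 0.30 without single libraries. In that comparison Hmgcs1 was at 0.03 with no filter and from -0.10 to 0.02 without single libraries, Sqle at -0.60 with thinned cells and Cyp51 from -0.80 to 0.02 without single libraries. In the fits of 2 classes, Sqle ranged from -0.04 to 0.38 for OPC against neurons without single libraries. For mature oligodendrocytes against neurons Fdft1 ranged from -0.24 to 0.10 without single libraries, with 0.01 without replicate 3, and Sqle at -0.26 on the scale of total UMIs.

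Leaving a few abundant genes and the mitochondrial genes out of the total put the 8 enzymes at 782.1 CPM in mature oligodendrocytes and 476 CPM in neurons. With cells thinned to 500 UMIs, the share with an enzyme UMI was 15.3% in OPC, 21.3% in committed precursors, 22.5% in mature oligodendrocytes, 36.6% in astrocytes and 18.7% in neurons. Counts over all genes moved by more than 1.5 times in 39 cases. Thinned cells lowered them to 792 from 1684 for OPC against mature oligodendrocytes, 64 from 327 for committed precursors against OPC, and 765 from 1402 against mature oligodendrocytes. It gave 936 from 1951 for astrocytes against mature oligodendrocytes, 431 from 1064 against OPC and 1156 from 2504 against neurons, 836 from 1807 for OPC and 1400 from 2777 for mature oligodendrocytes against neurons, and 27 from 185 within neurons. With no filter the counts of these comparisons were 2773, 2151, 3847, 6017, 3308 and 7700 for OPC, committed precursors and astrocytes against mature oligodendrocytes, and for astrocytes, OPC and mature oligodendrocytes against neurons. With at least 800 genes they were 1044, 171, 922, 393 and 1215 for OPC against mature oligodendrocytes, committed precursors against OPC, and astrocytes against mature oligodendrocytes, OPC and neurons. With a limit of 5% they were 913, 724, 960, 555, 1252, 1071 and 1347 for OPC, committed precursors and astrocytes against mature oligodendrocytes, astrocytes against OPC, and astrocytes, OPC and mature oligodendrocytes against neurons. Fits of 2 classes gave 116, 488, 5107 and 6643 for committed precursors and astrocytes against OPC and for astrocytes and mature oligodendrocytes against neurons, and 121, 489, 5183 and 7072 on the scale of total UMIs. DESeq2 gave 66 and leaving out library 1 gave 93 within neurons, and leaving out library 1 gave 150 for committed precursors against OPC. Few UMIs limit the precursors most.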
